A study of Mus musculus with 4 samples.

Results

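The 10 genes described here encode structural and processing proteins of the nucleolus, namely Ncl, Npm1, Fbl, Nop56, Nop58, Nolc1, Tcof1, Mki67, Gnl3 and Ddx21. They were taken by gene symbol, before any filter, from a deposited table of 24026 genes, and all 10 passed the filter on low values that left 13341 genes for the comparison of alleles. The table holds RNAseq of F123-ESCs, a male hybrid mouse embryonic stem cell line from a cross of S129/Jae and CAST mice, whose maternal copy of each autosome is S129 and whose paternal copy is CAST. All 4 libraries, replicates 1 to 4, form a single group of untreated cells that were grown with LIF on inactivated feeder fibroblasts, passaged without feeders on gelatin and then harvested, so the comparison the design allows is that of the S129 with the CAST allele inside each library. The cells are 1 hybrid line, and each allele stands for 1 strain and 1 parent, so strain and parent of origin cannot be told apart. No label states that the replicates are separate cultures, and p-values therefore measure the spread between these libraries, which may be technical.

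The nucleolus is a compartment without a membrane that forms around active ribosomal RNA genes, with fibrillar centres where RNA polymerase I works, a dense fibrillar component where the new transcript is modified and cleaved, and an outer granular component where ribosomal subunits are assembled. Box C/D snoRNPs, complexes of a small nucleolar RNA with Fbl, Nop56, Nop58 and Snu13, methylate the ribosomal RNA at sites chosen by base pairing. Embryonic stem cells divide rapidly and make ribosomes at a high rate, and several of these proteins, Npm1 and Fbl above all, serve as markers of nucleoli in microscopy.

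The allele-assigned reads that the RPKM values imply came to between 34120416 in replicate 4 and 56627972 in replicate 1, and S129 took 50.8% to 51.0% of them. A read entered the table where it covered a SNP between the strains, so the RPKM of a gene depends on its SNPs as well as on its RNA. All 10 embryonic stem cell markers were at or above 1 RPKM, from 29.5 RPKM for Pou5f1 to 7111 RPKM for Dppa5a. The 10 markers of feeder fibroblasts summed to between 495 and 589 RPKM per library, and 9 of them were at or above 1 RPKM. Acta2 had 340 ± 23.0, Col1a2 166 ± 17.5, Postn 15.4 ± 2.24 and Col3a1 11.4 ± 1.51 RPKM, while Lum had 0.0462 ± 0.0231 RPKM (SD, n = 4 each). Of 10 markers of primitive endoderm, 7 were at or above 1 RPKM, led by Dab2 with 44.2, Col4a1 with 26.9 and Lama1 with 11.2 RPKM, while Gata6 had 1.397, Gata4 1.03, Sox17 0.327 and Foxa2 0.189 RPKM. Of 6 neural markers, 2 were, Nes with 76.2 and Tubb3 with 19.97 RPKM, while Sox1 had 0.836 and Pax6 0.413 RPKM. Their part in the results was not tested. The genes together held 1093843 reads, 0.578% of all those assigned, with 2307 to 80858 reads behind each value of an allele in a library. Intervals of read shares given below are exact binomial and cover counting error alone, as PCR copies of a molecule were not told apart.

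All 10 genes were expressed in every library, and their levels spanned a 75.7-fold range. Levels here are RPKM, averaged over both alleles within each library, and in such bulk samples fewer cells that express a gene and less RNA per cell cannot be told apart. Npm1 was highest with 1585 ± 100 RPKM (SD, n = 4), above 99.7% of protein-coding genes. Nolc1 had 481 ± 47.4, Fbl 397 ± 99.5, Nop58 336 ± 46.8 and Nop56 224 ± 13.5 RPKM (SD, n = 4 each). Gnl3 had 160 ± 16.7, Ncl 91.3 ± 18.6 and Ddx21 63.7 ± 7.13 RPKM (SD, n = 4 each). Tcof1 with 30.3 ± 2.93 and Mki67 with 20.9 ± 1.09 RPKM (SD, n = 4 each) were lowest, with Mki67 above 82.1% of protein-coding genes. Neighbours in this order were separated in every library but for 3 pairs whose ranges overlapped, Nolc1 with Fbl, Fbl with Nop58, and Ncl with Ddx21. Nolc1 was above Fbl and Ncl above Ddx21 in 4 of 4 libraries each, whereas Fbl was above Nop58 in 3 of 4.

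**Figure D1:**
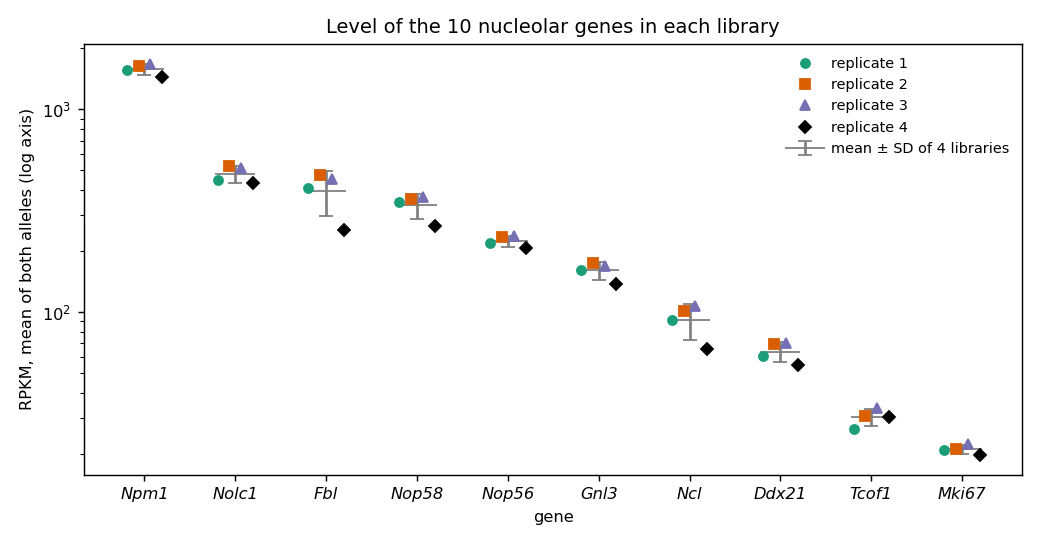
The plot shows the level of each gene (RPKM, mean of both alleles, log axis) in each library, with grey bars for the mean ± SD of 4 libraries. The genes run from Npm1 at 1453 to 1680 RPKM down to Mki67 at 19.6 to 22.3 RPKM, and the points of replicate 4 lie lowest in 9 of 10 genes.

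This order depends on the length by which the reads of a gene were divided. The steps between the deposited values show that 6 of the genes were divided by the length of their principal transcript, from 1197 bp for Fbl to 10061 bp for Mki67. Nop58 was divided by 576 bp, the length of a processed transcript, while its principal transcript has 1713 bp. Nolc1 was divided by 741 bp, against 3634 bp for its principal transcript. Gnl3 was divided by the 1765 bp of a transcript annotated for nonsense-mediated decay, against 1947 bp, and Tcof1 by 4595 bp, against 4529 bp. With the principal length, and the same reads, Nop58 stood at 113 ± 15.8 and Nolc1 at 98.1 ± 9.66 RPKM (SD, n = 4 each), which puts Fbl, Nop56 and Gnl3 above both. The principal transcript of Ncl has 8202 bp, the longest of 6 annotated lengths that start at 502 bp, and its next longest has 3072 bp. Divided by the union of all annotated exons, Nop58 fell from the 4th place to the last with 18.0 RPKM. Over which exons the reads were counted is not given in the sources used here, so no choice of length is known to be the right one. Levels of Nop58 and Nolc1 against the other genes are uncertain by the ratio of these lengths. The place of Ncl is uncertain in the same way, since the same reads divided by 3072 bp would give it a higher level. Comparisons of a gene with itself, between alleles or libraries, do not depend on the length.

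**Figure D2:**
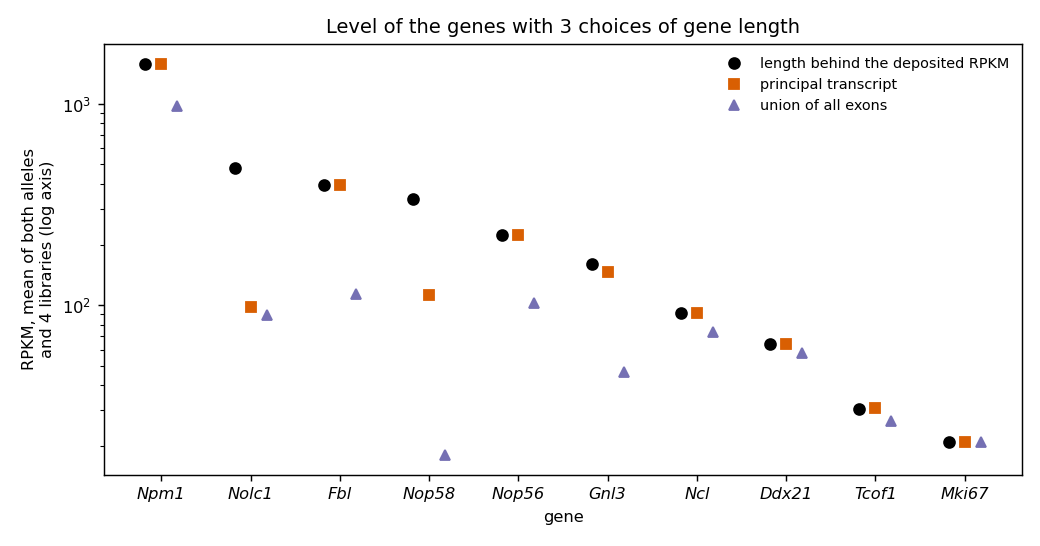
The plot shows the mean level of each gene (RPKM, mean of both alleles and 4 libraries, log axis) when its reads are divided by the length behind the deposited values, by that of the principal transcript or by that of all exons together. Nop58 moves from 336 to 113 and 18.0 RPKM and Nolc1 from 481 to 98.1 and 89.7 RPKM, while Mki67 stays at 20.9 RPKM.

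Between the alleles, 3 genes had more RNA from S129, 4 had more from CAST, and 3 did not pass the test. Mki67, Npm1 and Nop56 were higher on S129, and Fbl, Ncl, Ddx21 and Nop58 were higher on CAST, while Nolc1, Tcof1 and Gnl3 did not differ beyond the spread between libraries. The test was limma on the difference of log2(RPKM+0.1) between S129 and CAST within each library, and a gene was called at an adjusted p (Benjamini-Hochberg over 13341 genes) under 0.05. By this rule 62.7% of all genes tested were called, and 61.4% of the autosomal ones, 28.9% with S129 and 32.5% with CAST higher. A count of 7 of 10 is near this background. Without pairing of the alleles by library, Npm1 and Mki67 were the genes still called, and Nop56 had an adjusted p of 0.0574 (limma, Benjamini-Hochberg). The median absolute log2 difference was 0.17 over the 10 genes and 0.29 over the 12869 autosomal genes tested, and the median signed difference was -0.03 and -0.02. The autosomal genes include those of 4 chromosomes with shifted medians that hold none of the 10, and genes of lower level. These sets are therefore unlike, and the medians are given as description only. The S129 and CAST values of the 4 libraries did not overlap at all in 3 genes, Npm1, Nop56 and Mki67, against 43.6% of autosomal genes.

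**Figure D3:**
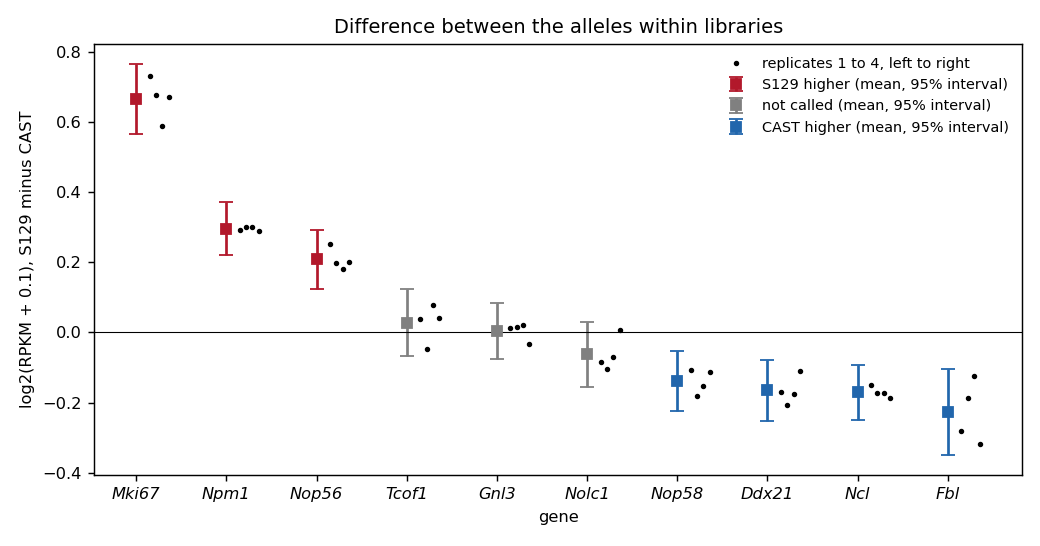
The plot shows the S129 minus CAST difference in log2(RPKM+0.1) of each gene, with squares and bars for the mean and its 95% interval from limma and dots for the 4 libraries. Mki67 at 0.67 lies apart from the others, which run from 0.30 for Npm1 to -0.23 for Fbl, and the intervals of Tcof1, Gnl3 and Nolc1 cross 0.

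Npm1 and Ncl, both abundant proteins that bind RNA and histones, differed between the alleles in opposite directions. Npm1 (nucleophosmin, ENSMUSG00000057113) is a chaperone that fills the granular component, and its gene lies at 33152287 to 33163206 on the minus strand of chromosome 11 (mm10). Its S129 allele had 1721, 1811, 1854 and 1599 RPKM in replicates 1 to 4, and its CAST allele 1405, 1472, 1506 and 1308 RPKM. Every S129 value was above every CAST value, and the share of S129 reads stayed within 55.8% to 56.2%. The difference was 0.30 (S129 minus CAST, SE 0.028, 1.23-fold, adjusted p = 0.00119 by limma after Benjamini-Hochberg adjustment, with S129 above CAST in 4 of 4 libraries). Of the 75-base windows of its principal transcript, 30.9% also occur in transcripts of 8 other genes, most of them processed pseudogenes. These windows are shorter than the reads of 150 bp, so the share of windows is not the share of reads with several matching places. How such reads were treated is not given in the sources used here, so the values of Npm1 are uncertain to an unknown extent.

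Ncl (nucleolin, ENSMUSG00000026234) takes part in transcription of ribosomal RNA genes and in the first cleavage of the transcript, and its gene lies at 86344719 to 86359400 on the minus strand of chromosome 1. Its S129 allele had 86.2, 95.6, 101 and 61.2 RPKM in replicates 1 to 4, and its CAST allele 95.6, 108, 114 and 69.7 RPKM. CAST was higher inside each library, but the ranges of the alleles overlapped, with or without replicate 4, which was low on both. The difference was -0.17 (SE 0.029, 1.13-fold, adjusted p = 0.0074 by limma with Benjamini-Hochberg adjustment, CAST higher in 4 of 4 libraries). The share of S129 reads was 47.8% to 48.2%. Of its windows, 0.0123% occur in another gene.

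The box C/D proteins did not move together between the alleles. Fbl (fibrillarin, ENSMUSG00000046865; chromosome 7, 28169710 to 28179269, plus strand) is the enzyme that sets the methyl groups. Its S129 allele had 370, 442, 433 and 226 RPKM in replicates 1 to 4, and its CAST allele 450, 504, 472 and 281 RPKM. CAST was higher in each library, by a log2 difference that ranged from -0.13 in replicate 3 to -0.32 in replicate 4, the widest range among the 10 genes. The fitted difference was -0.23 (S129 minus CAST, SE 0.046, 1.17-fold, adjusted p = 0.0126 by limma with Benjamini-Hochberg adjustment). Without replicate 1 it was -0.21 and no longer called (adjusted p = 0.0534 by limma). Of the windows of the Fbl transcript, 67.3% occur in transcripts of other genes, which makes Fbl the most uncertain of the 10 genes in this respect. The processed pseudogene Gm5812 holds 62.1% of the windows and transcripts of Tulp4 64.7%, both on chromosome 17. Tulp4 itself had a level of 9.56 RPKM.

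Nop56 and Nop58, paralogous proteins that hold the methylase on the snoRNA, went in opposite directions. Nop56 (ENSMUSG00000027405; chromosome 2, 130274430 to 130279313, plus strand) had 238, 250, 251 and 221 RPKM on S129 and 200, 218, 221 and 193 RPKM on CAST in replicates 1 to 4. The lowest S129 value was above the highest CAST value by 0.329 RPKM, and the difference was 0.21 (SE 0.031, 1.16-fold, adjusted p = 0.00491 by limma after Benjamini-Hochberg adjustment, with S129 above CAST in 4 of 4 libraries). Nop56 shares 35.8% of its windows with 5 processed pseudogenes, and its last 5 bases overlap those of Idh3b on the other strand. Nop58 (ENSMUSG00000026020; chromosome 1, 59684971 to 59719044, plus strand) had 334, 337, 349 and 256 RPKM on S129 and 360, 382, 388 and 277 RPKM on CAST. CAST was higher inside every library, with a difference of -0.14 (SE 0.032, 1.10-fold, adjusted p = 0.0187 by limma with Benjamini-Hochberg adjustment), the smallest that was called. It lost its call without replicate 1, 2 or 3 (adjusted p = 0.0531, 0.0812 and 0.0774 by limma) and with no filter on low values (adjusted p = 0.053 by limma). None of its windows occurs in another gene.

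**Figure D4:**
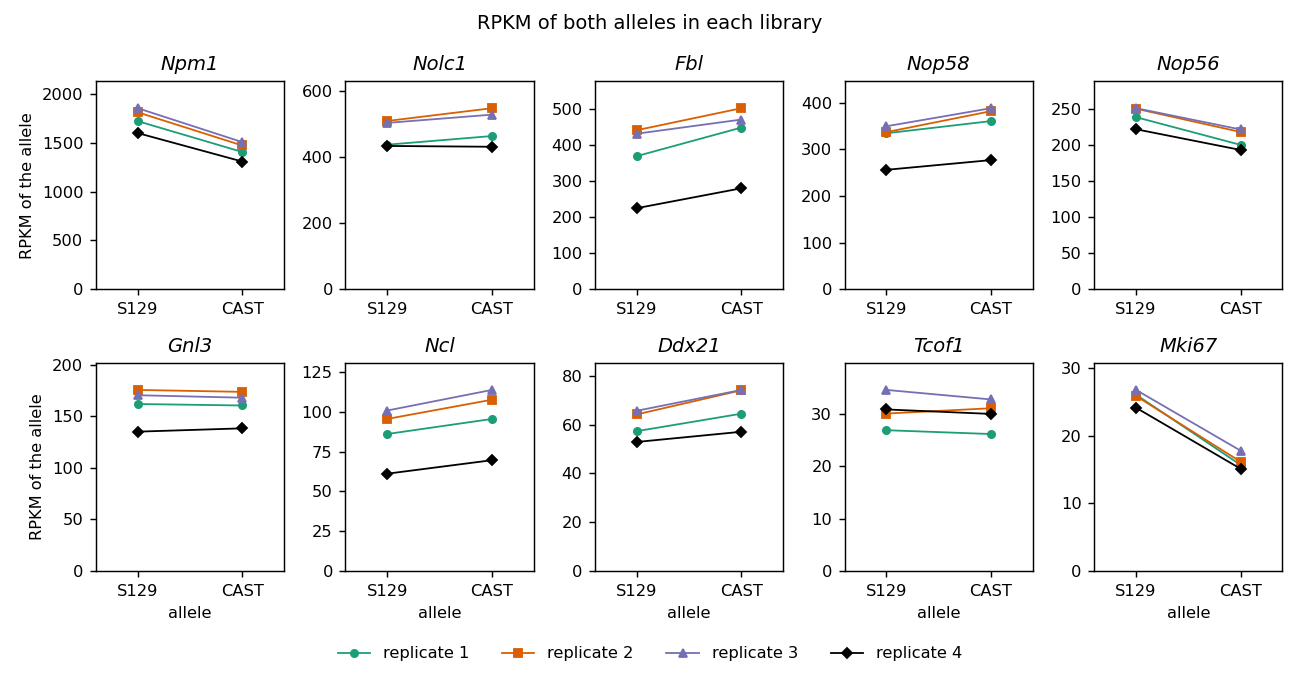
Each panel shows the RPKM of the S129 and the CAST allele of 1 gene, with a line for each of the 4 libraries and axes that start at 0. The lines of Mki67, Npm1 and Nop56 fall from S129 to CAST and those of Fbl, Nop58, Ncl and Ddx21 rise, in all 4 libraries, while Nolc1, Tcof1 and Gnl3 are flat or mixed.

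Several of these genes carry snoRNA genes in their introns, most of them of the kind that Fbl, Nop56 and Nop58 bind. The annotation places 15 snoRNA genes inside 4 of the 10 genes, 5 in Nop56, 4 in Nop58, 3 in Ncl and 3 in Gnl3, and all 15 lie in introns of the principal transcript. Some also lie in an exon of other annotated transcripts of the host. Gm24148 does so in 1 of 6, Snord69 in 2 of 14 and Snord19 in 1 of 14 transcripts, and Snord110 and Snord11 in none. The table lists 9 of them, and 6 were above 0. Box C/D snoRNAs are recognised by a C box near the 5′ end and a D box near the 3′ end, which lie side by side when the ends of the RNA pair. For each host, 1 snoRNA is printed in full from GENCODE M21 (mm10), so that the boxes bound by Fbl, Nop56 and Nop58 can be seen. It is the most abundant of its host among those of the 9 listed that have both boxes. Capitals mark the first TGATGA within the first 20 bases (C box) and the last CTGA within the last 16 bases (D box).
Gm24148 in Ncl, chr1:86352008-86352087, minus strand: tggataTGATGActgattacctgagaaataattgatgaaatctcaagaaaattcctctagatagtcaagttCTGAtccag
Snord110 in Nop56, chr2:130275506-130275573, plus strand: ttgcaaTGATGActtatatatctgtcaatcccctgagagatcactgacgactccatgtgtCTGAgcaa
Snord11 in Nop58, chr1:59704790-59704873, plus strand: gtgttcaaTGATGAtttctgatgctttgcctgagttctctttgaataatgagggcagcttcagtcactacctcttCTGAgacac
Snord69 in Gnl3, chr14:31014287-31014366, minus strand: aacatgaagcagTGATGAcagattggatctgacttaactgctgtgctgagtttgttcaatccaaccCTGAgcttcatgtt

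The values of these snoRNA genes are set beside those of their hosts, and the difference between snoRNA and host was not tested. Gm24148, whose sequence is the first of those printed, had 207, 144, 180 and 172 RPKM on S129 and 76.7, 49.3, 58.7 and 59.1 RPKM on CAST in replicates 1 to 4. It was higher on S129 in 4 of 4 libraries, by 1.53 on the log2 scale (SE 0.042, adjusted p = 2.96e-05 by limma with Benjamini-Hochberg adjustment), while its host Ncl was higher on CAST. Snord69 had 7.35 RPKM on S129 and 20.0 RPKM on CAST, a difference of -1.45 (SE 0.14, adjusted p = 0.00121 by limma, CAST higher in 4 of 4 libraries), and Snord19, also in Gnl3, had 56.6 against 37.6 RPKM, a difference of 0.62 (SE 0.10, adjusted p = 0.00728 by limma, S129 higher in 4 of 4 libraries). Both snoRNAs thus pointed in opposite directions inside a host whose own alleles did not differ beyond the spread. Snord110 (0.36, SE 0.17, adjusted p = 0.135 by limma) and Snord11 (-0.01, SE 0.16, adjusted p = 0.95 by limma) were not called, and Snord57 in Nop56 had 2.45 against 3.64 RPKM from 16 and 25 reads. Snora75 and Snord82 in Ncl and Snord70 in Nop58 were listed at 0 in all 8 columns. RPKM values of genes this short, 68 to 84 bp in the 4 printed sequences, rest on few reads. Over all libraries, Gm24148 had 1363 reads on S129 and 458 on CAST, Snord19 420 and 275, and Snord69 only 58 and 147. The libraries were enriched for polyA RNA and the reads have 150 bp, longer than these genes, and whether the reads came from the snoRNA or from host RNA that holds the intron was not tested.

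Nolc1, Tcof1 and Ddx21 act where the ribosomal RNA is transcribed and first modified. Nolc1 (ENSMUSG00000015176; chromosome 19, 46075863 to 46085530, plus strand) encodes a phosphoprotein that binds snoRNPs. It had 437, 508, 502 and 433 RPKM on S129 and 463, 547, 527 and 430 RPKM on CAST in replicates 1 to 4. CAST was higher in 3 of 4 libraries, and the difference of -0.06 was not called (95% interval -0.16 to 0.03, adjusted p = 0.184 by limma with Benjamini-Hochberg adjustment). Tcof1 (treacle, ENSMUSG00000024613; chromosome 18, 60813755 to 60848971, minus strand) supports RNA polymerase I in the fibrillar centre. It had 26.9, 30.1, 34.6 and 30.9 RPKM on S129 and 26.2, 31.1, 32.8 and 30.03 RPKM on CAST. The ranges of the alleles overlapped over most of their width, and the difference was 0.03 (95% interval -0.07 to 0.12, adjusted p = 0.538 by limma, S129 higher in 3 of 4 libraries). Both genes lie on chromosomes that the study counts among those with ribosomal RNA genes.

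Ddx21 (ENSMUSG00000020075; chromosome 10, 62580251 to 62602281, minus strand) encodes a DEAD-box RNA helicase of ribosomal RNA synthesis. It had 57.3, 64.2, 65.7 and 52.9 RPKM on S129 and 64.5, 74.1, 74.2 and 57.1 RPKM on CAST in replicates 1 to 4. CAST was higher inside every library, and the alleles overlapped across libraries. The difference was -0.17 (SE 0.033, adjusted p = 0.0121 by limma with Benjamini-Hochberg adjustment). It lost its call without replicate 1, 2 or 3 (adjusted p = 0.05001, 0.0581 and 0.0555 by limma).

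Gnl3 (nucleostemin, ENSMUSG00000042354; chromosome 14, 31012433 to 31019152, minus strand) encodes a GTP-binding protein of the granular component that is known for its high level in stem cells. It had 162, 176, 170 and 135 RPKM on S129 and 160, 174, 168 and 138 RPKM on CAST in replicates 1 to 4. S129 was slightly higher in replicates 1 to 3 and CAST in replicate 4, and the difference was 0.00 (95% interval -0.08 to 0.08, adjusted p = 0.924 by limma with Benjamini-Hochberg adjustment). It was the smallest of the 10 differences, and 99.2% of autosomal genes had a larger one. Its first 15 bases overlap those of Pbrm1 on the other strand.

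Mki67 had the largest difference between the alleles. Mki67 (ENSMUSG00000031004; chromosome 7, 135689784 to 135716361, minus strand) encodes the Ki-67 protein, a marker of dividing cells that coats mitotic chromosomes and lies at the rim of the nucleolus between divisions. Its S129 allele had 26.1, 25.9, 26.8 and 24.1 RPKM in replicates 1 to 4, and its CAST allele 15.7, 16.2, 17.8 and 15.1 RPKM. The ranges were 6.35 RPKM apart at their nearest, and between 61.0% and 63.2% of the reads were S129 in each library, with a 95% interval of 60.1% to 61.9% in the library with the lowest share. The difference was 0.67 (S129 minus CAST, SE 0.037, 1.59-fold, adjusted p = 0.000232 by limma after Benjamini-Hochberg adjustment, with S129 above CAST in 4 of 4 libraries). Among autosomal genes, 23.5% had a larger absolute difference. Fbl on the same chromosome was higher on CAST, and the median difference over the 1082 genes tested on chromosome 7 was -0.02.

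The start of Mki67 is shown because its alleles differ most. It runs from 250 bases before to 50 after the start site, chr7:135716330-135716629 on the minus strand (RefSeq, GRCm38.p6), in the reference sequence and not that of either allele. Capitals mark 3 motifs that were searched on both strands, with overlapping matches counted. They are the GC box with the letters GGGCGG, the box named after its letters CCAAT, and a site of the ETS kind with the letters CCGGAAG.
Mki67 start: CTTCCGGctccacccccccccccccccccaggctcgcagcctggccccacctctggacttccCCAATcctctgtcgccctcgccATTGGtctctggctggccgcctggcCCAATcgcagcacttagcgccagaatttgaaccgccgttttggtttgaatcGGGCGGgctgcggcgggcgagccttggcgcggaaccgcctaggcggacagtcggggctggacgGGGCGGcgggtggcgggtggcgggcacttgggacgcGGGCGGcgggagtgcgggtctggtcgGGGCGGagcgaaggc
It holds GGGCGG 4 times, CCAAT 3 times and CCGGAAG 1 time. Start regions were at hand for 7 of the 10 genes (Nop58, Ncl, Nop56, Mki67, Ddx21, Gnl3 and Nolc1). GGGCGG was in 7 of 7, against 35.7% of 32851 start regions of this length, CCAAT in 2 (Nop56 and Mki67), against 37.4%, CCGGAAG in 2 (Mki67 and Nolc1), against 8.86%, and the E-box CACGTG in 0, against 7.15%. The 32851 start regions were not matched to the 7 by level or base content, so these shares do not set the 7 apart from similar genes. The motifs were chosen after values were seen, and a match is a run of letters, not a bound site.

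The calls of the 4 genes higher on CAST depended on how the alleles were scaled. Each allele was scaled to its own total, and that of S129 includes the X chromosome, which this male line has from the S129 mother. With columns rescaled to the same autosomal reads, chosen after seeing the data, Nop58 lost its call (adjusted p = 0.0607 by limma). Ncl, Fbl and Ddx21 kept theirs, at -0.12, -0.18 and -0.12 (adjusted p = 0.021, 0.028 and 0.031 by limma). When each column was rescaled to the same sum of autosomal RPKM, the median of autosomal genes moved by 0.10 towards S129, calls over all genes went from 4187 with S129 and 4182 with CAST higher to 5134 and 3070, and none of the 4 was called. Their differences were then -0.07 for Ncl, -0.12 for Fbl, -0.04 for Nop58 and -0.06 for Ddx21 (adjusted p = 0.198, 0.104, 0.485 and 0.211 by limma with Benjamini-Hochberg adjustment). The new autosomal median was 0.08. This scaling moves all genes by nearly the same amount, so the place of a gene against the median is kept by construction. Mki67, Npm1 and Nop56 were called with S129 higher under this scaling too, where the shift towards S129 could only add to their differences. Medians of single chromosomes ran from -0.74 on chromosome 3 to 0.69 on chromosome 16, with 0.19 on chromosome 6 and -0.25 on chromosome 8. None of the 10 genes lies on these 4 chromosomes, and the medians of the 8 chromosomes that hold them lay between -0.07 and 0.01. With the median of its chromosome taken out, each of the 7 called genes was called in the same direction, and Nolc1 was at 0.00.

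Replicate 4, the library with the fewest reads, had lower values than the others, and Fbl and Ncl were among the genes that were lowest in it. Fbl had 410, 473 and 452 RPKM in replicates 1 to 3 and 253 RPKM in replicate 4, and Ncl had 90.9, 102 and 107 against 65.4 RPKM. Both values lie clearly below the range of the other libraries. On the log2(RPKM+0.1) scale, replicate 4 was below the mean of the others by -0.81 for Fbl (1.76-fold), -0.61 for Ncl (1.52-fold) and -0.43 for Nop58 (1.34-fold). Of all genes tested, 1.06% had a lower value than Fbl, 2.11% than Ncl and 6.09% than Nop58. Both alleles showed this, with -0.88 on S129 and -0.76 on CAST for Fbl and -0.62 and -0.60 for Ncl.

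The other genes were nearer to the general shift. Gnl3 was at -0.30, Ddx21 at -0.27, Nolc1 at -0.20, Npm1 at -0.16, Nop56 at -0.15 and Mki67 at -0.12, beside a median of -0.13 over all genes tested (quartiles -0.25 and 0.03). Tcof1 was at 0.01, and its lowest value was in replicate 1. In 9 of the 10 genes replicate 4 was below each of the other libraries, against 53.5% of all genes tested. The number of reads was lowest in this library too, and its part in the result was not tested. Among the box C/D proteins the pattern was uneven, since Fbl and Nop58 were low in replicate 4 while Nop56, and Snu13 at -0.17, were near the general shift. Without replicate 4, the level of Fbl was 445 ± 32.1 and that of Ncl 100 ± 8.39 RPKM (SD, n = 3 each), and no call between the alleles was lost. The coefficient of variation went from 25.05% to 7.21% for Fbl and from 20.3% to 8.39% for Ncl. This fall follows from leaving out the library in which both were far lowest. For Tcof1, which was not lowest there, it went from 9.67% to 11.85%.

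**Figure D5:**
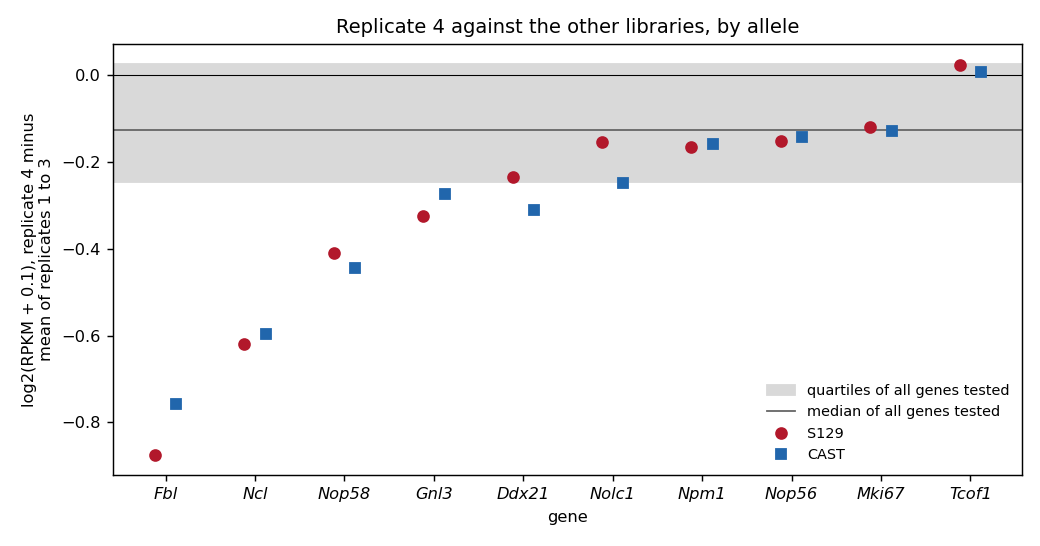
The plot shows log2(RPKM+0.1) in replicate 4 minus the mean of replicates 1 to 3, for each gene and allele, with the median (line) and quartiles (band) of all 13341 genes tested. Fbl, Ncl, Nop58 and Gnl3 lie below the band on both alleles and Ddx21 and, narrowly, Nolc1 on CAST, and Npm1, Nop56 and Mki67 lie close to the median of -0.13.

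In the wider machinery of ribosome assembly, values in replicate 4 were low in most genes as well. The lists of box C/D and H/ACA snoRNPs, the small subunit processome and large subunit assembly held 88 tested genes. Of these, 70 were below each of the other libraries, against 53.5% of all genes tested. Their median was -0.22, against -0.13 over all genes tested. The lowest and the highest, named after their values were seen, were both H/ACA proteins, which guide pseudouridylation as a complex. Gar1 had 36.8, 45.6 and 45.1 RPKM in replicates 1 to 3 and 21.6 RPKM in replicate 4, and Nop10 had 421, 353 and 344 against 506 RPKM. The median was -0.22 for 15 mitosis genes and -0.25 for 10 embryonic stem cell markers, and of the feeder markers 4 of 9 were below each other library.

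Between the alleles, 27 of 85 autosomal genes of the wider lists were higher on S129 and 26 on CAST, beside 28.9% and 32.5% of all autosomal genes tested. Their median difference was -0.02, as over all autosomal genes, and their median absolute difference was 0.17, against 0.29 over that set, which includes genes of lower level. By list, 2 of 8 further box C/D genes were higher on S129 and 2 on CAST, 2 and 1 of 5 H/ACA genes, 13 and 6 of 34 genes of the small subunit processome, and 10 and 17 of 38 genes of large subunit assembly. Snu13, the fourth core box C/D protein, had 346, 302, 304 and 292 RPKM on S129 and 262, 235, 234 and 207 RPKM on CAST (difference 0.41, SE 0.037, adjusted p = 0.00101 by limma with Benjamini-Hochberg adjustment), so that S129 was higher for Snu13 and Nop56 and CAST for Fbl and Nop58. Of the assembly factors of the same snoRNPs, Ruvbl2 differed by 0.13 and Pih1d1 by -0.14 (adjusted p = 0.0188 and 0.0139 by limma). Several of the largest differences were on chromosomes whose medians were shifted, Znhit6 (-0.69) and Rpf1 (-0.87) on chromosome 3, Naf1 (-0.85) on chromosome 8, Shq1 (0.37) on chromosome 6 and Rsl1d1 (0.86) on chromosome 16. On other chromosomes, the genes named by the same rule were Nifk on chromosome 1 (0.78, adjusted p = 0.000162 by limma), which binds the Ki-67 protein, Nsa2 (-0.61), Utp6 (0.52) and Utp3 (0.44) (adjusted p = 0.00036, 0.000769 and 0.0049 by limma). Bysl was at -0.30 (adjusted p = 0.00297 by limma), and Wdr3 (-0.63) and Gar1 (0.30) lie on chromosome 3.

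Mki67 was also set beside 15 genes of mitosis, of which 5 were higher on S129 and 6 on CAST, beside 28.9% and 32.5% of all autosomal genes tested, with a median difference of -0.05. Cenpe on chromosome 3 (-0.96) and Cenpf on chromosome 1 (-0.37) were the furthest towards CAST, and Ccnb1 (0.22) and Bub1b (0.17) the furthest towards S129 (adjusted p = 8.00e-05, 0.00453, 0.00503 and 0.0202 by limma with Benjamini-Hochberg adjustment). The difference of Mki67, at 0.67, was above that of each gene of the list called with S129 higher. The genes of a list share their 4 libraries and some their chromosome, and no test of the list itself was made.

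The relatives of the 10 genes had quite different levels. Npm3, a smaller protein of the Npm1 family, had 351 ± 11.6 RPKM (SD, n = 4) and, like Npm1, was higher on S129, by 0.47 (SE 0.032, adjusted p = 0.000419 by limma with Benjamini-Hochberg adjustment, 4 of 4 libraries), whereas Npm2, known from the egg, had 0.335 ± 0.0811 RPKM and was not tested. Fbll1, a close relative of Fbl, was listed at 0 in all 8 columns. Ddx50, the paralog of Ddx21, had 84.9 ± 9.32 RPKM and was higher on CAST like it, by -0.22 (SE 0.036, adjusted p = 0.00643 by limma). Gnl2 had 79.6 ± 11.4 RPKM and was not called (-0.15, adjusted p = 0.0731 by limma). Gnl3l lies on the X chromosome, which this male line has from the S129 mother, and had 48.0 to 59.9 RPKM on S129 and at most 0.0501 RPKM on CAST. The X-linked Dkc1, Utp14a and Las1l of the lists had at most 0.0896 RPKM on CAST.

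The genes most like Npm1 and Fbl in their values were found by the Euclidean distance over the 8 log2(RPKM+0.1) values of 4 libraries and 2 alleles, which share their libraries. Nearest to Npm1 were Vim at a distance of 0.37, Myl6 at 0.71 and Gsta4 at 0.76. Vim had 1902, 2102, 2058 and 1816 RPKM on S129 and 1380, 1584, 1511 and 1270 RPKM on CAST. Nearest to Fbl were Anapc5 at 0.74, Capza2 at 0.76 and Psmd1 at 0.78. Anapc5, with 356 ± 39.3 RPKM (SD, n = 4), was also higher on CAST than on S129 in every library and lowest in replicate 4. Capza2 and Psmd1 were lowest in replicate 4 too, but Psmd1 was higher on S129 in every library. Capza2 was higher on CAST in replicates 1 to 3 and on S129 in replicate 4. Myl6 and Gsta4 were highest in replicate 4 on both alleles, where Npm1 was lowest, so a small distance here reflects similar levels more than a shared pattern.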

How the data were processed

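RNAseq of polyA-enriched RNA from untreated F123-ESCs was examined in 4 libraries. The authors removed ribosomal reads, trimmed with Trimmomatic 0.40, aligned with STAR to the masked mm10 genome, split reads into alleles with SNPsplit, and deposited RPKM per gene and allele. The deposited averages and log10 values were not used. The counting program and annotation are not given in the sources used here.

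Genes were matched to GENCODE M21 by identifier (23995 of 24026). Steps between RPKM values gave each allele's total and the reads (tolerance 0.02 reads and 2e-07 per read); 94.5% of genes above 0 came out whole, so each allele was scaled to its own total. Alleles were compared by limma 3.58.1 (R 4.3.3) across all genes on log2(RPKM+0.1) differences within libraries, for genes whose alleles together averaged at least 1 RPKM, with Benjamini-Hochberg adjustment. On this scale changes of low genes are understated. Both alleles are reads of the same library, and their deviations correlated at 0.17 to 0.30 within libraries (-0.20 to 0.16 between). Read recovery and limma were tested on simulated data.

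The members and lists were chosen with earlier results of these data known. Genes named were the 10 members, their relatives, snoRNAs inside them, the 2 furthest called genes in each direction per list, and the 3 genes nearest to Npm1 and to Fbl. Of the listed genes, Nopchap1 and Utp25 matched no symbol of the table and were not analysed here. Alternatives were another pseudocount, other filters and scalings, chromosome medians, a variance trend, no replicate block, each library left out, each allele alone, the median of libraries and other gene lengths. Rescaling to autosomal reads and the principal length were added after seeing the data.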

Additional observations from a re-analysis of the deposited data

Results flagged for a closer look

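Among 20 quantities, the level and the log2 difference between the alleles of each of the 10 genes over 4 libraries, 1 held a library far from the others by Dixon's criterion, a number that chance alone gives at about 1 in 20. It was the difference of Gnl3, which was -0.0339 in replicate 4 (S129 minus CAST) and between 0.0128 and 0.0205 in replicates 1 to 3. The levels of Fbl and Ncl in replicate 4 were not marked by this criterion.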

How the results depend on the processing

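Of 120 recomputed allele differences of the 10 genes under 12 alternatives, 98 kept direction and call, 18 lost the call and 4 changed sign. Those 4 belonged to genes that were not called: Nolc1 was at 0.0404 with columns rescaled to the same autosomal sum and at 0.0037 with chromosome medians subtracted, and Gnl3 ran from -0.0019 to 0.0162 when 1 library was left out. The count of the 10 genes higher on S129 was 2 to 3 in all alternatives. The count higher on CAST was 0 after rescaling to the autosomal sum and 0 with no replicate block, and ran from 1 to 4 when 1 library was left out, where the spread rests on fewer libraries. In the wider lists, 13 genes were higher on CAST after the same rescaling, and 11 on S129 and 12 on CAST with no replicate block. Counts over all genes stayed within 1.5 times in every alternative. Rescaling to the same autosomal reads, chosen after seeing the data, ended the call of Nop58 (-0.09, adjusted p = 0.0607 by limma). Of the 10 places in the order of levels, 1 was kept with the exon-union length and 5 with the principal transcript length. The cause of these changes was not tested, apart from the lengths and scalings that define them. Each value of an allele in a library rests on at least 2307 reads, and reads that cover no SNP are outside the table.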
